A study of Homo sapiens with 6 samples.

Results

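The small nucleolar RNA (snoRNA) host genes are genes whose introns hold snoRNAs, and most of them carry the symbol SNHG followed by a number. The group described here comprised every gene with such a symbol in the deposited count table, 25 genes, together with the 4 hosts GAS5, ZFAS1, EPB41L4A-AS1 and DANCR, for 29 of the 58870 genes in the table. Of these 29 genes, 24 reached at least 1 CPM (a count scaled to the library total) in at least 3 of the 6 libraries and could be tested, as did 15088 genes in all. The rule that picks the members uses gene symbols and no measured value.

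RNA-seq profiles were compared between wild-type (WT, Thumpd+/+) cells of HEK-293T, a transformed line from human embryonic kidney, and a Thumpd-/- line made from it with CRISPR-Cas9 (THUMPD1 KO). The KO line was grown from a single sorted cell, so that it represents 1 clone, and both lines were kept in DMEM with no further treatment. THUMPD1 is the adaptor protein with which the enzyme NAT10 acetylates cytidine in certain tRNAs, and the comparison addresses which RNAs change in abundance when it is lost. Each genotype had 3 libraries of ribosomal RNA-depleted total RNA, with total expected counts of 32225646 to 44099898, so that 1 CPM stood for 32.2 to 44.1 counts. As a check of the labels, THUMPD1 had 3258, 3315 and 3013 counts in WT replicates 1, 2 and 3 and 395, 529 and 353 in the KO replicates. LIN28B and PAX2, both known to be expressed in this line, had 5329 to 7563 and 72 to 180 counts per library, while the blood cell gene PTPRC and the liver gene ALB had at most 4 and 3.

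A snoRNA host gene is transcribed and spliced like an mRNA gene, and the snoRNA is trimmed out of the excised intron. Box C/D snoRNAs guide ribose methylation and box H/ACA snoRNAs guide pseudouridylation, mostly of ribosomal RNA, while the related scaRNAs act on spliceosomal RNAs in Cajal bodies. The joined exons of many hosts encode no conserved protein, reach the cytoplasm, are engaged by ribosomes at short reading frames and are removed by nonsense-mediated decay (NMD), the pathway that degrades RNAs in which translation stops upstream of an exon junction. Several hosts also begin with a C followed by a run of pyrimidines, the 5′ terminal oligopyrimidine (5′ TOP) start they share with ribosomal protein mRNAs.

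The first bases of 8 hosts are shown to set hosts with such a start beside 2 hosts without one, EPB41L4A-AS1 and SNHG17. Each sequence is the RNA strand written as DNA, 5′ to 3′ on GRCh38, and capitals mark a C at the first base with the unbroken pyrimidines after it where at least 4 follow. RefSeq (GRCh38.p14) gave the starts of ZFAS1, SNHG5, SNHG12, C6orf48, EPB41L4A-AS1 and SNHG17, and GENCODE 44 those of GAS5 and SNHG29, whose first exon has only the 24 bases printed. For hosts with a tract the annotation that shows it was printed. The other annotation starts elsewhere and has no tract for GAS5, SNHG5, SNHG29 and C6orf48, while ZFAS1 and SNHG12 have one at both starts.
ZFAS1, chr20:49278642-49278671, plus strand: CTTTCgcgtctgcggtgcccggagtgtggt
GAS5, chr1:173867960-173867989, minus strand: CTTTTCgaggtaggagtcgactcctgtgag
SNHG5, chr6:85678704-85678733, minus strand: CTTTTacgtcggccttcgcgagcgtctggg
SNHG12, chr1:28581844-28581873, minus strand: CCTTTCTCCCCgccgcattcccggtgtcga
SNHG29, chr17:16439037-16439060, plus strand: CTTTTCattcccgttgttatggag
C6orf48, chr6:31834916-31834945, plus strand: CTTTTTgcgaagtgggctcgtgggttggca
EPB41L4A-AS1, chr5:112160526-112160555, plus strand: tgtcgggtcccaaaatacgtggtctaaagt
SNHG17, chr20:38435299-38435328, minus strand: agtccttcgccgtccctcgccgtccttcgc
The tract was searched as a C at the first base followed by at least 4 bases that are C or T, on the RNA strand only. It stood at the RefSeq start of 5 of 21 tested members (23.8%), against 1429 of 35116 RefSeq starts of all genes (4.07%). At the canonical GENCODE start it stood in 4 of 23 members (17.4%), against 740 of 15001 tested genes (4.93%). The tested member SNHG6 was left out of this search, and SNHG9 and SNHG15 had no RefSeq start in the sequences used. Of the 21 members with a start in both annotations, 7 (33.3%) had it at either start, namely GAS5, ZFAS1, SNHG5, SNHG12, SNHG4, SNHG29 and SNHG19, and 2 (9.52%) had it at both. At either start it stood in 696 of the 10869 tested genes with a start in both (6.4%). These are matches to annotated first bases, and transcription starts were not measured in these cells. All 24 tested members had a spliced canonical transcript, as had 857 of the 1352 other lncRNA genes tested. The reading frame from the first ATG stopped more than 50 nt before the last exon junction in 22 of 24 members (91.7%) and in 671 of the 857 other spliced lncRNAs (78.3%). The members had a median of 4 exons, against 2 over all 1352 other lncRNAs, unspliced ones included. The median GC content of the members, 47.8%, lay close to the 47.4% of these 1352.

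In THUMPD1 KO cells 6 hosts were more abundant and 1 was less abundant. GAS5, ZFAS1, EPB41L4A-AS1, SNHG5, SNHG12 and SNHG17 rose, with mean CPM 13.4 to 26.4% above the WT mean, and SNHG19 fell. These 7 of 24 members (29.2%) passed the limma-voom test at an adjusted p under 0.05, against a background of 26.7% of all tested genes. By direction, 6 of 24 (25.0%) were called higher, beside 13.7% of all tested genes and 12.6% of tested lncRNA genes. The 1 member called lower (4.17%) stood beside 13.0% of all tested genes and 6.54% of tested lncRNA genes. The share of members called was thus near the background, and the calls lay mostly in the direction of higher abundance. The remaining 17 members did not pass. In RNA of whole cultures, more RNA per cell and more cells that express a gene cannot be told apart.

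The log2 fold change (KO minus WT) was positive in 18 of the 24 members and negative in 6. Its median was 0.11 over the members, 0.065 over 1376 lncRNA genes and 0.016 over all tested genes, and the median standard error of a member was 0.067. In 11 of the 24 members (45.8%) every KO library lay above every WT library, which held for 24.5% of all tested genes. In 1 member (4.17%) every KO library lay below every WT library, as in 17.6% of all tested genes. No test was made over the members as a list. The labels do not say what the replicate numbers mark, and same-numbered libraries were taken as pairs because they deviated together. With the replicate number as a block, 9 members (37.5%) were called higher and 1 lower (4.17%), beside 18.4% and 16.7% of all tested genes. Between libraries of the same number, 13 members (54.2%) were higher in the KO library in all 3 pairs, as were 35.5% of all tested genes. In 1 member (4.17%), SNHG19, the KO library was lower in all 3 pairs, as in 26.2% of all tested genes.

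**Figure D1:**
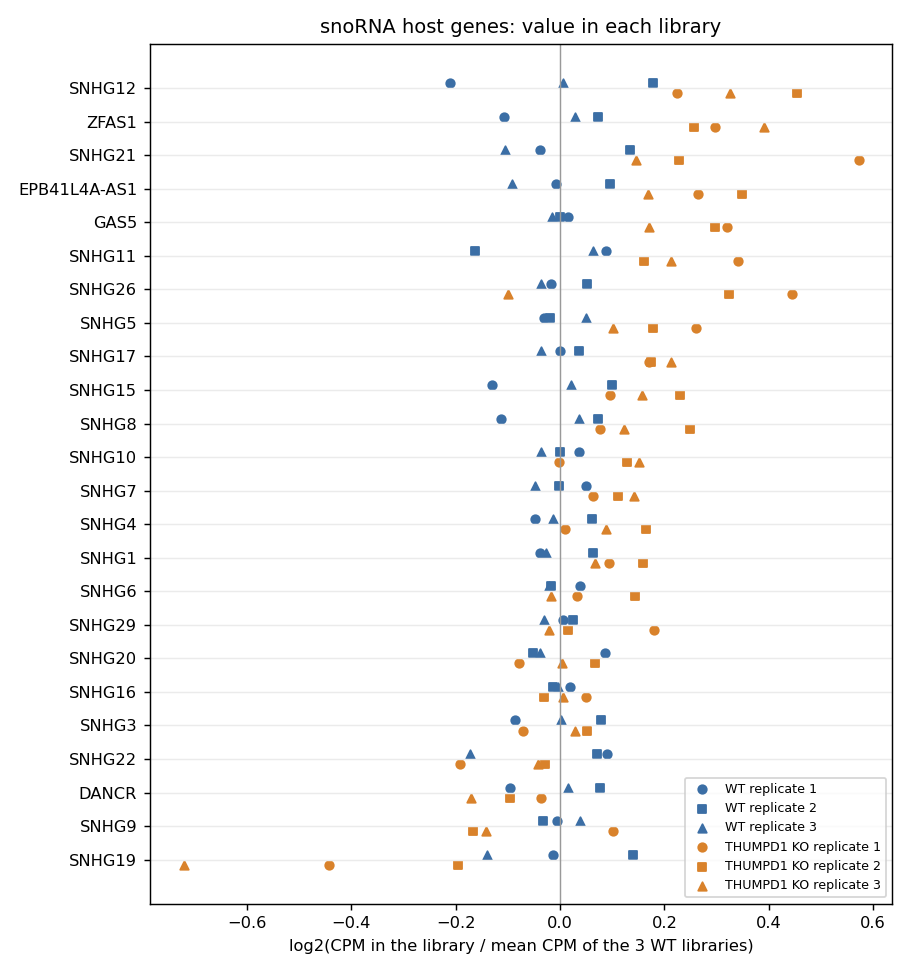
Level of each tested snoRNA host gene in each library, as log2 of its CPM over the mean CPM of the 3 WT libraries (horizontal axis); blue symbols are WT and orange symbols THUMPD1 KO, and the shape gives the replicate number. In 11 of the 24 rows the 3 orange points lie to the right of all blue points, and in the row of SNHG19 they lie to the left.

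Summed over all 29 members, host RNA took 1669, 1723 and 1673 CPM in WT replicates 1, 2 and 3 and 1846, 1832 and 1777 CPM in the KO replicates. Every KO library was above every WT library, with means of 1688 ± 29.7 (SD, n = 3) and 1818 ± 36.5 CPM (SD, n = 3). The difference of the means was 130.1 CPM (7.71% of the WT mean), of which GAS5 alone made 44.7 CPM. CPM values are not corrected for transcript length. Per kilobase of the canonical transcript, the highest WT levels were those of SNHG16 (688 CPM per kb), SNHG29 (602 CPM per kb) and GAS5 (289.7 CPM per kb). Per kilobase of each gene's median annotated transcript the order was GAS5 (304 CPM per kb), SNHG29 (261 CPM per kb) and SNHG16 (139 CPM per kb), so that the ranking of these hosts depended on the length used.

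GAS5, growth arrest-specific 5, holds 10 box C/D snoRNAs and SNORA103 in its introns and is the textbook 5′ TOP host RNA decayed on translation (ENSG00000234741.8, chr1:173858559-173868882, minus strand). It had 224.7, 222.5 and 220.2 CPM in WT replicates 1, 2 and 3 and 277.8, 273.2 and 250.5 CPM in the KO replicates. The lowest KO library was above the highest WT library, and the KO libraries were spread more widely than the WT libraries. GAS5 rose from 222 ± 2.28 to 267 ± 14.6 CPM (SD, n = 3 each), a log2 fold change of 0.25 with a standard error of 0.047 (limma-voom adjusted p of 0.00302). The call held in all 13 other settings, with adjusted p of 3.73e-05 to 0.0198 by the tool of each setting. The 8 tested genes within 1 Mb of GAS5 had a median log2 fold change of 0.092. GAS5-AS1 and ZBTB37 overlap it on the other strand.

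ZFAS1, whose introns hold SNORD12, SNORD12B and SNORD12C, starts head to head with ZNFX1 (ENSG00000177410.12, chr20:49278178-49299600, plus strand). It had 30.1, 34.1 and 33.1 CPM in the WT libraries and 39.8, 38.7 and 42.5 CPM in the KO libraries. The genotypes did not overlap, and the spread within each was about 2 CPM. ZFAS1 rose from 32.4 ± 2.07 to 40.4 ± 1.95 CPM (SD, n = 3 each), a log2 fold change of 0.32 with a standard error of 0.067 (limma-voom adjusted p of 0.00547). Like that of GAS5, its call held in all 13 other settings, with adjusted p of 0.00137 to 0.0298. Its 15 neighbours within 1 Mb had a median log2 fold change of 0.12.

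EPB41L4A-AS1, the host of the box H/ACA snoRNA SNORA13, is transcribed against the gene EPB41L4A (ENSG00000224032.6, chr5:112160526-112164818, plus strand). Its levels were 25.4, 27.3 and 24.0 CPM in the WT libraries and 30.7, 32.6 and 28.7 CPM in the KO libraries. Replicates with the same number moved by nearly the same amount, with log2 ratios of 0.27, 0.25 and 0.26 in pairs 1, 2 and 3. EPB41L4A-AS1 rose from 25.6 ± 1.67 to 30.7 ± 1.93 CPM (SD, n = 3 each), a log2 fold change of 0.27 with a standard error of 0.070 (limma-voom adjusted p of 0.0167). Without WT replicate 3 the adjusted p was 0.0703, and without KO replicate 2 it was 0.0786. Its 9 neighbours had a median log2 fold change of 0.027.

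DANCR, the host of SNORA26, was the member of these 4 long-studied hosts that did not pass (ENSG00000226950.6, chr4:52712325-52723623, plus strand). It had 39.5, 44.4 and 42.6 CPM in the WT libraries and 41.1, 39.5 and 37.5 CPM in the KO libraries, and the genotypes overlapped. Its log2 fold change was −0.097 with a standard error of 0.061 (limma-voom adjusted p of 0.269). Without WT replicate 1 the adjusted p was 0.04998, and in the other settings it stayed above the threshold.

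Among the hosts with SNHG symbols, SNHG12 had the highest log2 fold change of all members. It holds SNORA16A, SNORA44, SNORA61 and SNORD99 (ENSG00000197989.14, chr1:28578538-28583132, minus strand). It had 28.7, 37.6 and 33.3 CPM in the WT libraries and 38.7, 45.5 and 41.6 CPM in the KO libraries. The lowest KO library lay just above the highest WT library, and replicate 1 was the lowest and replicate 2 the highest in both genotypes. SNHG12 rose from 33.2 ± 4.44 to 41.9 ± 3.37 CPM (SD, n = 3 each), a log2 fold change of 0.36 with a standard error of 0.099 (limma-voom adjusted p of 0.0218). Without KO replicate 2 the adjusted p was 0.104, without KO replicate 3 it was 0.0654, and with no CPM filter it was 0.0628. The counts of SNHG12 were not whole numbers in any library, the mark of reads that RSEM shares out between genes, and TRNAU1AP overlaps it on the other strand.

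SNHG5 holds the box C/D snoRNAs SNORD50A and SNORD50B (ENSG00000203875.11, chr6:85650491-85678932, minus strand). It had 68.7, 69.2 and 72.6 CPM in the WT libraries and 84.0, 79.3 and 75.3 CPM in the KO libraries. The gap between the genotypes was small against the spread of the KO libraries, and the pair ratios on the log2 scale were 0.29, 0.20 and 0.052. SNHG5 rose from 70.1 ± 2.14 to 79.5 ± 4.40 CPM (SD, n = 3 each), a log2 fold change of 0.18 with a standard error of 0.051 (limma-voom adjusted p of 0.0238). This call was lost without WT replicate 2 (adjusted p of 0.0662), KO replicate 1 (0.0774) or KO replicate 2 (0.0738), with no CPM filter (0.0565) and with the trend along GC content and length removed (0.0512).

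SNHG17 holds the 4 box H/ACA snoRNAs SNORA71A to SNORA71D (ENSG00000196756.12, chr20:38419638-38435409, minus strand). It had 85.7, 87.8 and 83.5 CPM in the WT libraries and 96.4, 96.7 and 99.3 CPM in the KO libraries, with clear separation and a narrow spread in both. SNHG17 rose from 85.7 ± 2.15 to 97.5 ± 1.58 CPM (SD, n = 3 each), a log2 fold change of 0.18 with a standard error of 0.042 (limma-voom adjusted p of 0.0102). Without WT replicate 3 the adjusted p was 0.0560. Its 13 tested neighbours within 1 Mb had a median log2 fold change of 0.23, above that of SNHG17 itself, and 4 of them were called higher and 0 lower. The same 13 neighbours surround SNHG11, host of 2 box H/ACA snoRNAs, whose log2 fold change was 0.24 with a standard error of 0.086. SNHG11 did not pass in limma-voom with genotype alone (adjusted p of 0.0626) and did with the replicate block (0.0395). The part of the region in both values was not tested.

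SNHG19, the host of SNORD60, was the only member called lower, and the least abundant of the members tested (ENSG00000260260.1, chr16:2154792-2155405, minus strand). It had 3.39, 3.78 and 3.11 CPM in the WT libraries and 2.52, 2.99 and 2.08 CPM in the KO libraries, without overlap. SNHG19 fell from 3.43 ± 0.335 to 2.53 ± 0.457 CPM (SD, n = 3 each), a log2 fold change of −0.50 with a standard error of 0.16 (limma-voom adjusted p of 0.0423). It passed in 4 of the 13 other settings. The call was lost without WT replicate 2 (adjusted p of 0.132), WT replicate 3 (0.0714), KO replicate 1 (0.0984) or KO replicate 3 (0.144), by edgeR (0.0619) and DESeq2 (0.0855), and with no CPM filter (0.0979), TMM library sizes (0.0568) or the trend along GC content and length removed (0.0564). Of the 80 tested genes within 1 Mb of it, 59 were called lower and 0 higher, and their median log2 fold change was −0.37. SNHG9, host of the box H/ACA snoRNA SNORA78, lies in the same stretch of chromosome 16. Its log2 fold change was −0.12 (adjusted p of 0.448 by limma-voom), while 54 of its 73 neighbours were called lower with a median of −0.36. The part of this stretch in the value of SNHG19 was not tested.

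**Figure D2:**
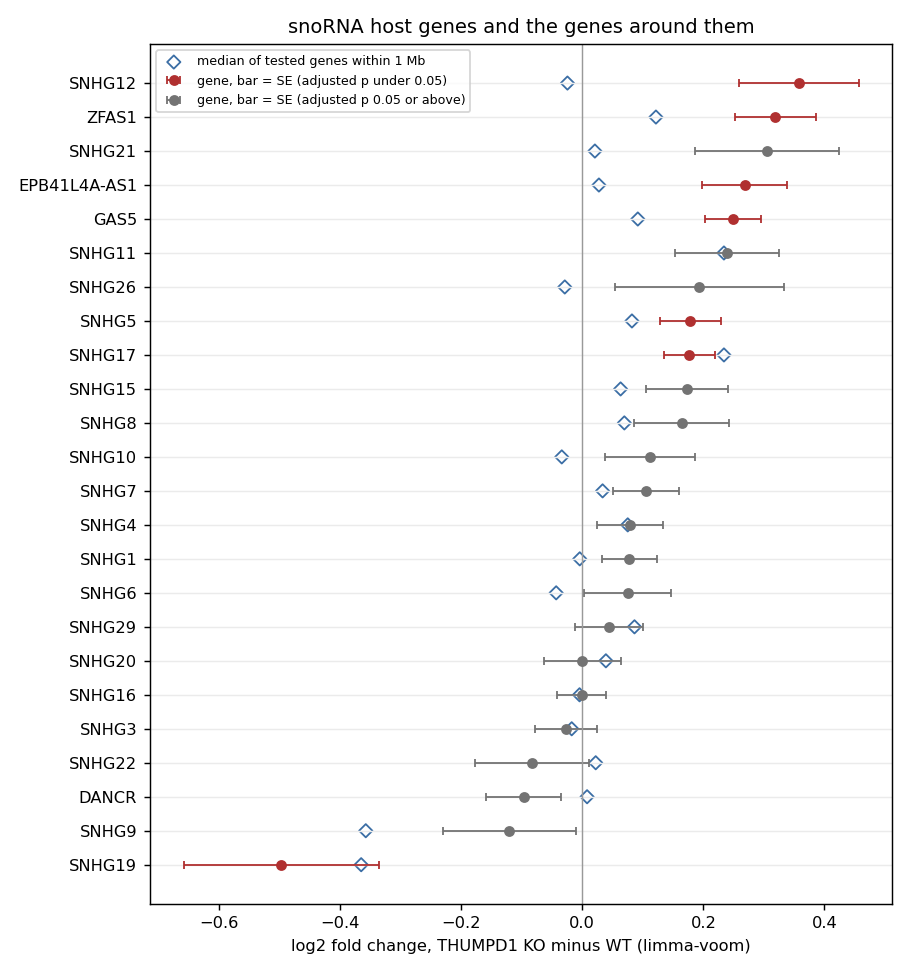
Log2 fold change of each tested snoRNA host gene, THUMPD1 KO minus WT by limma-voom (horizontal axis), with its standard error as the bar; red points passed at an adjusted p under 0.05 and grey points did not, and open blue diamonds give the median log2 fold change of the tested genes within 1 Mb. SNHG12 (0.36) and ZFAS1 (0.32) lie well to the right of their diamonds, SNHG17 and SNHG11 lie near theirs, and SNHG19 (−0.50) and its neighbours (−0.37) both lie to the left.

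The 3 SNHG genes with the highest mean CPM did not pass. SNHG16, host of 3 box C/D snoRNAs, had 347.3, 339.4 and 341.6 CPM in the WT libraries and 354.7, 335.7 and 344.1 CPM in the KO libraries. Its genotypes overlapped fully, with a log2 fold change of −0.00096, a standard error of 0.040 (limma-voom adjusted p of 0.989). SNHG29, host of 3 box C/D snoRNAs, had 267.6, 271.2 and 260.7 CPM in the WT libraries and 302.0, 269.4 and 262.7 CPM in the KO libraries. Only KO replicate 1 stood above the WT libraries, and the log2 fold change was 0.044 (adjusted p of 0.602). SNHG1, whose introns hold 8 box C/D snoRNAs, had 126.3, 135.5 and 127.2 CPM in the WT libraries and 138.4, 144.9 and 135.8 CPM in the KO libraries. Every KO library of SNHG1 was above every WT library by a narrow gap, and its log2 fold change of 0.078 with a standard error of 0.046 did not pass (adjusted p of 0.233).

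A further 3 hosts passed only in other settings, beside SNHG11 and DANCR. SNHG15 had a log2 fold change of 0.17 (limma-voom adjusted p of 0.0814), which was 0.0108 with the replicate block and 0.0397 without WT replicate 2. SNHG8 had 0.16 and an adjusted p of 0.144, or 0.0357 with the replicate block. SNHG7 had 0.11 and an adjusted p of 0.176, or 0.0222 once the trend along GC content and length was removed. All 3 hold box H/ACA snoRNAs. The highest log2 fold change among members that did not pass was that of SNHG21, at 0.31 with a standard error of 0.12 (adjusted p of 0.0816), and its genotypes did not overlap. The log2 fold changes of the other members that did not pass were 0.19 for SNHG26, 0.11 for SNHG10, 0.079 for SNHG4, 0.075 for SNHG6, 0.00022 for SNHG20, −0.027 for SNHG3 and −0.083 for SNHG22. SNHG4 overlaps MATR3, SNHG3 overlaps RCC1 and SNHG20 overlaps SEC14L1 on the same strand, so that the reads of these 3 hosts are hard to tell from those of the protein-coding gene. Of the 24 members, 18 overlap some other annotated gene, and without a stated strand setting of the counting, reads from the opposite strand cannot be told apart.

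The 5 members that were not tested lay below the filter. SNHG25 had 34.74, 45.12 and 33.7 expected counts in WT replicates 1, 2 and 3, against 33.7, 39.01 and 19.46 in KO replicates 1, 2 and 3, and SNHG28 had at most 4.92 counts in any library. SNHG14, the long host of the imprinted region of chromosome 15, SNHG18 and SNHG27 had 0 counts in all 6 libraries. A count of 0 allows up to 3 counts, or 0.068 to 0.0931 CPM depending on the library, for counting error only.

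The snoRNAs in the introns of the 24 tested members number 58 by annotation, 33 of box C/D, 21 of box H/ACA and 4 scaRNAs. The 8 members with box C/D snoRNAs alone had a median log2 fold change of 0.076, with 2 called higher and 1 lower. The 10 with box H/ACA snoRNAs alone had a median of 0.13, with 2 called higher and 0 lower. Both members that hold the 2 kinds together, GAS5 and SNHG12, were called higher. Of the 4 scaRNA hosts, SNHG10, SNHG20, SNHG21 and SNHG22, 0 were called by limma-voom, edgeR or DESeq2, and 1 had an unadjusted p under 0.05. Over all tested genes, limma-voom called 13.7% higher and 13.0% lower. Classes of 2 to 10 genes are too small to be told apart from these shares or from each other. The count table had 51 snoRNA rows within tested members, of which 9 passed the filter and 15 had 0 counts in every library. SNORA16A, SNORA17B and SNORD22 had repeated rows, and no row lay within GAS5. The 9 tested snoRNA rows had a median log2 fold change of −0.044, and 0 were called by limma-voom, edgeR or DESeq2, with 0 at an unadjusted p under 0.05. Limma-voom called 26.7% of all tested genes. Total RNA libraries of this kind recover RNAs as short as snoRNAs poorly, and these values are no measure of snoRNA output.

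A host listed under an older symbol, C6orf48 (now SNHG32), was not a member by name. This host of SNORD48 and SNORD52 had 35.4, 31.0 and 29.4 CPM in the WT libraries and 41.2, 35.0 and 36.8 CPM in the KO libraries, and WT replicate 1 was above KO replicate 2. Its log2 fold change was 0.24 with a standard error of 0.074 (limma-voom adjusted p of 0.0355), and it passed in 7 of the 13 other settings. The call was lost without WT replicate 2 (adjusted p of 0.0917), WT replicate 3 (0.131), KO replicate 1 (0.116) or KO replicate 3 (0.0821), with no CPM filter (0.0905) and with TMM library sizes (0.0532).

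A list of protein-coding genes that also hold snoRNAs in their introns showed a lower median. Ribosomal protein genes, many of which are also snoRNA hosts, were left out of this list. Of 30 such genes, 2 were called higher and 1 lower (6.67% and 3.33%, beside 13.7% and 13.0% of all tested genes), with a median log2 fold change of 0.037. SNX5, a sorting nexin of endosomes, rose (log2 fold change of 0.22 with a standard error of 0.048, adjusted p of 0.00662 by limma-voom), as did CCAR1, a regulator of cell cycle and apoptosis (0.13, adjusted p of 0.0440). TBRG4, a mitochondrial RNA-binding protein, fell by 0.18 on the log2 scale (adjusted p of 0.0262). With the replicate block, 6 of the 30 were called, 4 higher (13.3%) and 2 lower (6.67%). Both shares lay below the 18.4% and 16.7% of all tested genes with that block.

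Of 24 NMD factors, 7 were called higher (29.2%, beside 13.7% of all tested genes) and 3 lower (12.5%, beside 13.0%), with a median log2 fold change of 0.088. RBM8A, a core protein of the exon junction complex, rose (0.29 with a standard error of 0.046, adjusted p of 0.00124 by limma-voom), and its 24 neighbours within 1 Mb had a median of 0.22. The helicase UPF1 (0.21) and its partner UPF2 (0.17) were also among the 7. GSPT1, the release factor eRF3a, fell by 0.44 on the log2 scale (adjusted p of 1.56e-04), and RNPS1, an exon junction protein, fell by 0.39 (adjusted p of 2.34e-04). The third NMD factor called lower was SMG1, the kinase of UPF1. All 3 lie on chromosome 16, where the tested genes within 1 Mb had median log2 fold changes of −0.38 for GSPT1, −0.36 for RNPS1 and −0.40 for SMG1. The part of these regions in the values was not tested.

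Of 19 mRNAs known as NMD targets, 6 were called higher (31.6%, beside 13.7% of all tested genes) and 2 lower (10.5%, beside 13.0%), and 11 did not pass. Their median log2 fold change was −0.018. The cell cycle inhibitor CDKN1A rose most (1.10 with a standard error of 0.093, adjusted p of 2.34e-05 by limma-voom), followed in order of adjusted p by IFRD1 (0.28) and SMG5 (0.21). SMG5 and UPF3B were counted as called higher both here and among the NMD factors, so these lists share genes. The 2 called lower were ATF4 (−0.37) and SLC7A11 (−0.71), both also known as genes of the integrated stress response. ASNS, another such gene of this list, did not pass (−0.51, adjusted p of 0.0756 by limma-voom). SLC7A11 had 299.9, 152.0 and 164.7 CPM in WT replicates 1, 2 and 3 and 158.1, 108.3 and 101.7 CPM in the KO replicates. The genotypes of SLC7A11 thus overlapped, with WT replicate 1 far above the other libraries. The 27 tested neighbours of ATF4 within 1 Mb had a median log2 fold change of −0.30, and their part in its value was not tested. With the replicate block 13 were called, 7 higher (36.8%) and 6 lower (31.6%), beside 18.4% and 16.7% of all tested genes.

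**Figure D3:**
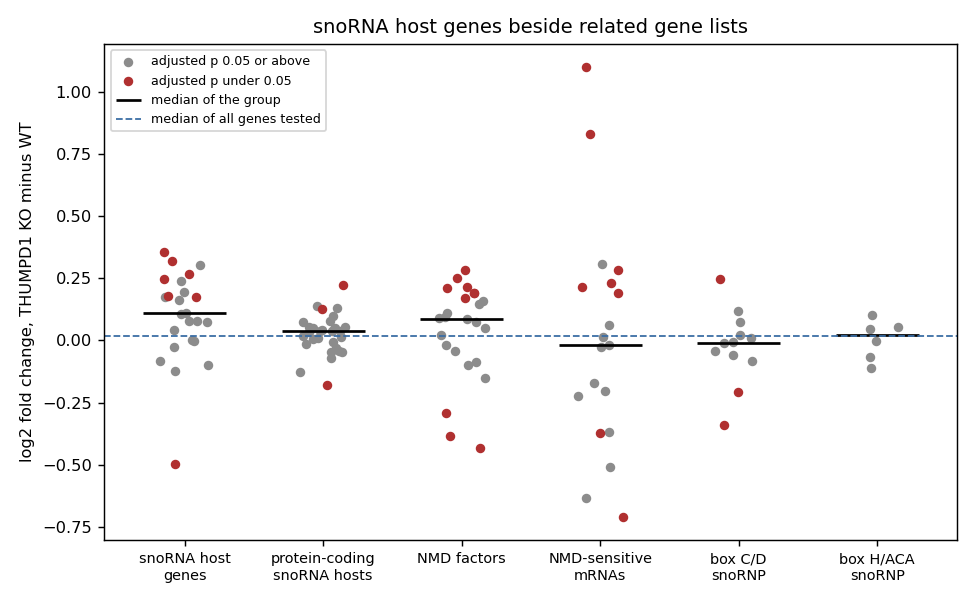
Log2 fold change, THUMPD1 KO minus WT by limma-voom (vertical axis), of each tested gene in 6 groups (horizontal axis); red points passed at an adjusted p under 0.05, grey points did not, black lines are group medians and the dashed line is the median of all tested genes (0.016). The host genes have the highest median (0.11), and the NMD factors and NMD-sensitive mRNAs show called genes in both directions.

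The proteins that bind snoRNAs were also listed. Of 12 genes for box C/D particle proteins and their assembly factors, 1 was called higher and 2 lower (25.0% in all, beside 26.7% of all tested genes), with a median log2 fold change of −0.0082. SNU13, the protein that binds the kink turn of box C/D snoRNAs, fell by 0.34 on the log2 scale (adjusted p of 7.73e-04 by limma-voom), and its 40 neighbours within 1 Mb had a median of −0.27. The assembly factor ZNHIT6 fell by 0.21 (adjusted p of 0.00612), and the assembly factor gene C12orf45, now NOPCHAP1, rose (0.25, adjusted p of 0.0417). Of 6 genes for box H/ACA particle proteins, 0 were called by limma-voom, edgeR or DESeq2, 1 had an unadjusted p under 0.05, and the median log2 fold change was 0.022.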

How the data were processed

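Trizol-extracted total RNA of HEK-293T cells gave 3 WT and 3 THUMPD1 KO libraries, made with the Ribo-Zero Plus stranded kit and read in paired-end mode. The authors used STAR to align reads to GRCh38 and deposited RSEM expected counts per gene, unscaled and not always whole. Which strand setting RSEM was run with is not given in the sources used here, and the Ensembl versions point to a GENCODE release older than the one the methods name. Positions, overlaps and neighbours came from GENCODE 44, and snoRNAs from RefSeq with GENCODE where RefSeq names none.

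A gene needed 1 CPM or more in 3 or more libraries to be tested. After quantile normalization, limma-voom (limma 3.58.1, R 4.3.3) was fitted with a genotype term alone and two-sided tests, with Benjamini-Hochberg adjustment over 15088 genes and a threshold of 0.05. The labels do not say whether replicates are separate cultures, so p-values measure the spread between these libraries. Deviations from genotype means of same-numbered libraries correlated at 0.288, 0.258 and 0.163 over 13483 genes, all above 0.1, against −0.274 to 0.0919 for other pairs, so the numbers were taken to pair the libraries. Alternatives were TMM library sizes, no CPM filter, the edgeR 4.0.16 quasi-likelihood test and DESeq2 1.42.0 on rounded counts, the replicate block, removal of trends along GC content and length (splines with 5 degrees of freedom), and each library left out. Scripts were tested on simulated data.

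The members and gene lists were chosen with earlier results of these data known. Values per library are given for GAS5, ZFAS1, EPB41L4A-AS1, DANCR, each member called and the 3 SNHG genes of highest mean CPM, and other lists name the 3 genes of smallest adjusted p. SMG1, UPF1, UPF2, UPF3B, ATF4, SLC7A11, ASNS and the 4 marker genes of the cell line check were named after their values were seen. Counts called whole are whole to 2 decimals.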

Additional observations from a re-analysis of the deposited data

How the results depend on the processing

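Of the 24 members, 7 were called. With no CPM filter the number was 4, and leaving out 1 library gave 4 to 8, with 4 (4 higher, 0 lower) without WT replicate 3 and 4 (3 higher, 1 lower) without THUMPD1 KO replicate 2. The number of calls over all genes moved as well. It was 4025 of 15088 in the main fit and 3200 of 31730 with no CPM filter. Among the 15088 genes it was 5297 with the replicate block and 5712 with that block and the trend removed. With 1 library left out it was 2663 (without KO replicate 2) to 4245 (without WT replicate 1), and 2724 without WT replicate 3. The median log2 fold change of the members stayed between 0.078 and 0.13 in every setting. Of the protein-coding hosts, 3 were called, 1 with no CPM filter, 6 with the replicate block, 5 with that block and the GC and length trend removed, and 1 to 5 with 1 library left out (1 without WT replicate 2, WT replicate 3 or KO replicate 2, and 5 without WT replicate 1). Of the NMD-sensitive mRNAs, 8 were called, 13 with the replicate block, and 5 to 10 with 1 library left out (5 without KO replicate 2). Of the box H/ACA proteins, 0 were called, 1 with the trend removed and the block, and 0 to 1 with 1 library left out (1 without KO replicate 1). Beyond SNHG11, SNHG15 and SNHG8, the replicate block changed no call of a single host. Hosts near 0 changed sign. SNHG20 (0.00022) had log2 fold changes of −0.027 with TMM, −0.026 with edgeR, −0.025 with DESeq2, −5.8e-05 with the replicate block, −0.011 with the trend removed, −0.011 with both, and −0.049 to 0.053 with 1 library left out. With 1 library left out, SNHG16 lay between −0.027 and 0.020, SNHG3 between −0.069 and 0.013, and SNHG29 between −0.024 and 0.085. SNHG9 had 0.0095 with the trend removed and 0.012 with the block as well. The cause of these changes was not tested. At this depth 5 members lay under the CPM filter.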

Other observations

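In WT replicate 3, the hosts SNHG4 and SNHG17, on different chromosomes, had the same expected count of 3112.84, and in the other 5 libraries their counts differed.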
